A study of Mus musculus with 9 samples.

Results

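The collagen family was examined in mouse aorta: every gene with a symbol of the form Col, digits, a, digits that the array's annotation pairs alone with at least 1 probe set. The rule found 82 probe sets of 42 genes, of 18193 genes measured by a probe set of their own. Each gene was represented by its probe set with the highest mean over the 9 arrays. The other probe sets of the 27 genes that had several served to check directions, and 15 genes had a single probe set. Col6a6, Col21a1 and Col28a1 are not analysed here.

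Aortic RNA came from male BMAL+/+ and BMAL-/- mice, both partially backcrossed onto C57Bl/6J, and each sample was hybridised to its own Affymetrix mouse expression array. The labels give no age and no cell type for the deletion. Arntl encodes BMAL1, a transcription factor of the circadian clock. All mice had at least 2 weeks of light and dark phases of 12 h, then at least 30 h of darkness, and were killed at ZT14. The BMAL+/+ group holds 5 arrays (F01, F04, F07, F09 and F10) and the BMAL-/- group 4 (F02, F03, F05 and F08). The source name of F01 reads BMAL-/-, whereas its title and strain read BMAL+/+, where it was kept. The comparison asks whether collagen transcripts differ between the genotypes at this time of day.

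Collagens are proteins of the extracellular matrix built from 3 chains wound into a triple helix. Fibrillar collagens form the load-bearing fibres of the arterial wall, type IV collagen forms the sheet of basement membranes around smooth muscle and under endothelium, and type VI forms beaded filaments beside cells. Fibril-associated collagens sit on the surface of fibres, and multiplexins carry sugar chains in basement membranes. The chains are hydroxylated and folded in the endoplasmic reticulum, then secreted, trimmed and crosslinked.

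Values are log2 expression, a scale on which 1 unit is a factor of 2 and probe sets of different genes cannot be ranked. Array medians lay between 3.13 and 3.24, and the median over all probe sets was 3.19, close to a dense floor. Of the 42 collagen genes, 27 lay at or above that median and 15 below it. Of the smooth muscle markers 8 of 8 were above it, as were 9 of 9 fibroblast, 8 of 8 endothelial and 8 of 8 macrophage markers, but also 7 of 7 skeletal muscle, 5 of 5 cardiac muscle and 3 of 3 adipocyte markers. The mean of the skeletal muscle markers ran from 4.55 on F01 to 11.5 on F08, and that of the adipocyte markers from 11.3 to 11.9. Of 10 cartilage markers, 4 were above the median, and Acan, Cnmd, Matn1, Matn3, Chad and Snorc were below it.

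Several arrays stand apart. The targeted gene, Arntl, was at 2.74 to 2.82 on F01, F07, F09 and F10 and at 5.87 to 6.22 on F02, F03 and F08, so it was higher on arrays labelled BMAL-/-, the opposite of a lost transcript. F04 was at 6.67 and F05 at 2.77. No source used here tells whether this probe set falls within the deletion, and if it does not, it cannot check the labels. On F04, labelled BMAL+/+, and F05, labelled BMAL-/-, Arntl and other clock genes thus read like the other genotype. Npas2, a partner of BMAL1 that takes the place of CLOCK, was at 8.36 on F04, within the 7.90 to 8.52 of F02, F03 and F08. On F05 it was at 3.40, like F01, F07, F09 and F10 (3.37 to 3.40). Differences are therefore given for the 9 arrays as labelled and beside them for the 7 arrays without F04 and F05, and "BMAL+/+" and "BMAL-/-" mean the labels throughout. The Gapdh control measures RNA integrity as its 3' minus its 5' probe set. It was 3.31 on F02, 2.88 on F03 and 3.01 on F04, against −0.13 to 1.26 on the other 6 arrays. Of the 3 arrays with the largest value 2 are labelled BMAL-/-, while F05 and F08 of BMAL-/- read 0.70 and 0.05. Integrity is thus unevenly spread over the labels, and without F04 and F05 the large values are on BMAL-/- arrays alone. Its part in the results was not tested except where a fit with it as a covariate is given.

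No collagen gene passed the threshold of an adjusted p under 0.05 in either comparison. In limma with Benjamini-Hochberg adjustment, 0 of 45037 probe sets passed over the 9 arrays (0%) and 4 over the 7 arrays (0.00888%), none of them a collagen. The words higher and lower below give the sign of a difference. Over the 9 arrays the difference, BMAL-/- minus BMAL+/+, was positive for 31 of the 42 genes and negative for 11. Its median was 0.04, against 0.03 over all genes. Among the 27 brighter genes it was positive for 17, with a median of 0.04 against 0.01 over all brighter genes. The medians over the 7 arrays were 0.05 against 0.04 for all genes and 0.03 against 0.03 for brighter ones.

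At an unadjusted limma p under 0.05, 3 collagen genes were higher (7.14%) and 0 lower over the 9 arrays, where 6.52% of all genes were higher and 0.731% lower. They were Col9a3, Col11a2 and Col24a1. Among the brighter genes, Col9a3 alone was higher (1 of 27, 3.70%) and none lower, against 1.17% and 1.16% of brighter genes in all. No brighter collagen had groups that did not overlap, against 0.34% higher and 0.259% lower. The count of 3 was 1 without F01, F07, F09 or F10, 0 without F02 or F03, and 6 without F04, F05 or F08.

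Without F04 and F05, 9 collagen genes were higher (21.4%) and 1 lower (2.38%) at an unadjusted limma p under 0.05, where 18.2% of all genes were higher and 4.13% lower. The share of collagens lies near that of all genes. Among the brighter genes Col4a1, Col5a3 and Col9a3 were higher (3 of 27, 11.1%) and Col4a6 lower (3.70%), against 8.06% and 6.65%. Groups did not overlap for Col4a3, Col5a3 and Col9a3, all higher (11.1%, against 8.18%), and for no lower collagen, against 5.06%. The count of 10 was 4 without F01, 5 without F02, F03, F07 or F09, and 3 without F10. It was 14 without F08, where 16445 of 45037 probe sets passed an adjusted p of 0.05, 11 of them collagens.

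**Figure D1:**
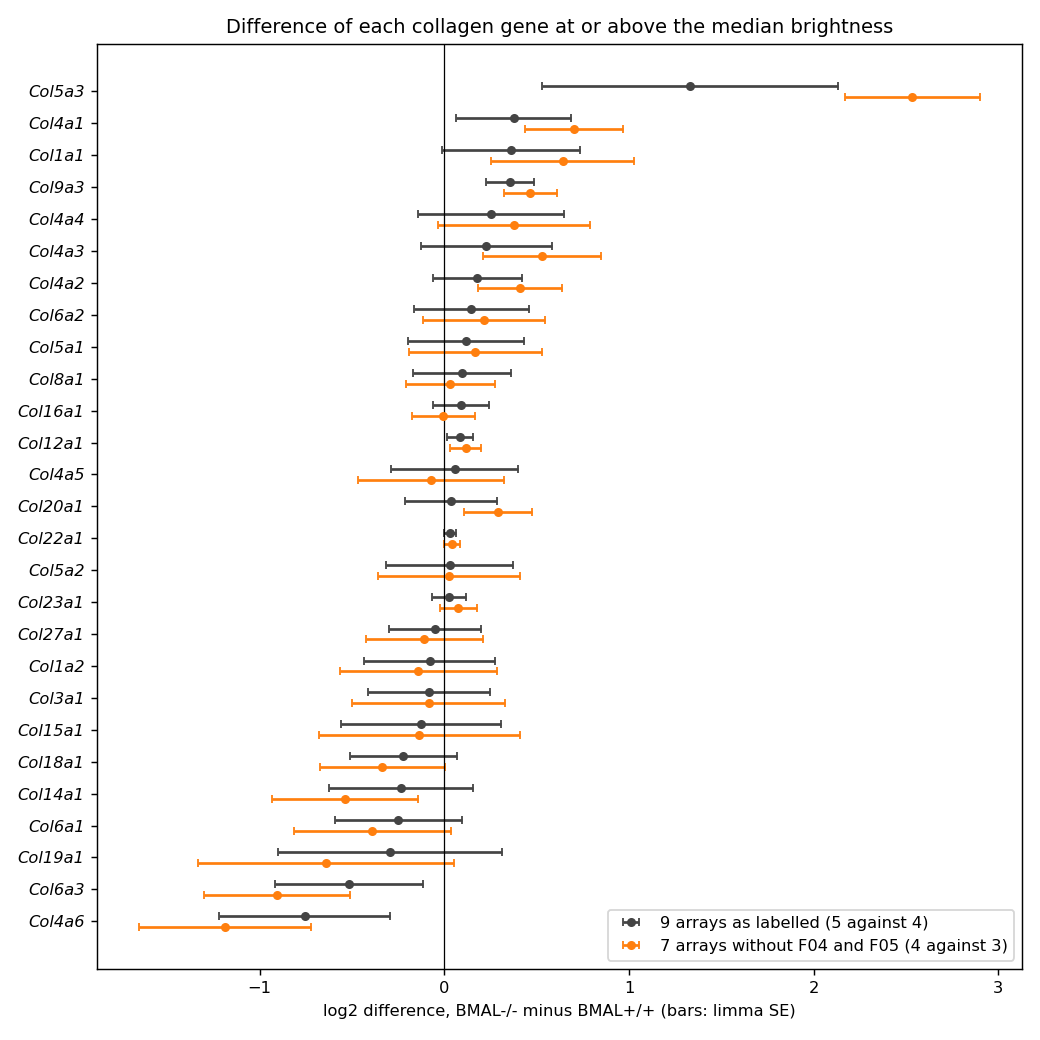
The 27 collagen genes at or above the median brightness are plotted by their log2 difference, BMAL-/- minus BMAL+/+, with limma's standard error, for the 9 arrays as labelled and for the 7 arrays without F04 and F05. Col5a3 lies farthest to the right in both (1.33 and 2.53) and Col4a6 farthest to the left (−0.76 and −1.19), with most other genes within their error of 0.

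The widest difference in the family was that of Col5a3, the α3 chain of type V collagen, a minor fibrillar collagen that joins type I fibres. It was high on 4 of the 9 arrays, and these were the arrays with high Npas2, not all arrays of 1 label. Sequence upstream of the outer end of the RefSeq gene (GRCm38.p6, chr9:20815118-20815317, minus strand, 200 bases, 58.0% GC), without the 50 bases of the promoter window that lie inside the annotated gene upstream of the window's own start, is shown because the difference of Col5a3 is the widest of the family, and capitals mark the only one of the motifs searched that it holds, CCAAT.
Col5a3: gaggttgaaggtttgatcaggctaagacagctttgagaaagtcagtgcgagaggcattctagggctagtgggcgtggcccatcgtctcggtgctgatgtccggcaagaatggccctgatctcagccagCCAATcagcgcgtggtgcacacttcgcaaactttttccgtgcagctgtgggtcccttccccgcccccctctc

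The clock's canonical E-box CACGTG, to which BMAL1 binds with its partner, was not found in the promoter window of any of the 33 collagen genes that have one. It was sought on both strands of RefSeq's windows of 300 bases, and 0 of their 36 windows held it, against 7.15% of 32851 windows of all genes. The D-box TTATGTAA was in 0 of the 36, against 0.938%. The REV-ERB and ROR site AGGTCA was in 8 of 36 (Col4a4, Col6a5, Col7a1, Col9a1, Col11a1, Col20a1, Col23a1 and Col24a1), against 16.3%. CCAAT was in 13 of 36, against 37.4%, and TATAAA in 5 of 36, against 13.6%. A window without these letters says nothing of sites elsewhere, and a match is not a site.

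Among the BMAL+/+ arrays, Col5a3 read 4.43 on F01, 5.67 on F07, 5.73 on F09, 4.79 on F10 and 7.45 on F04. Among the BMAL-/- arrays it read 7.37 on F02, 7.74 on F03, 7.97 on F08 and 4.71 on F05. The labelled groups overlapped through F04 and F05 alone. Mean Col5a3 over the 9 arrays was 5.62 ± 1.17 for BMAL+/+ (SD, n = 5) and 6.95 ± 1.51 for BMAL-/- (SD, n = 4). They differed by 1.33 ± 0.80 (SE), 2.51-fold, with an adjusted limma p of 0.383 and a two-sided exact permutation p of 0.167. This difference is not larger than the spread between arrays.

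Without F04 and F05, mean Col5a3 was 5.16 ± 0.65 for BMAL+/+ (SD, n = 4) and 7.69 ± 0.30 for BMAL-/- (SD, n = 3). The difference was 2.53 ± 0.37 (SE), 5.80-fold, and the groups did not overlap. The limma p was 0.000272 unadjusted and 0.208 adjusted, and the exact permutation p was 0.0286, the smallest that 7 arrays allow. Of 18193 genes, 36 had a smaller p in this comparison and 7 a larger positive difference. The 7 arrays were chosen by clock genes, and the values of Col5a3 follow these, so the test is not independent of that choice.

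Col5a3 lay between 7.37 and 7.97 on the 4 arrays where Npas2 was 7.90 to 8.52, and between 4.43 and 5.73 on the 5 where Npas2 was 3.37 to 3.40. Nr1d2, a REV-ERB repressor of the clock, was 5.08 to 5.89 on those 4 arrays and 10.4 to 11.7 on those 5. Col5a3 was high on F08, where the Gapdh 3' minus 5' value was 0.05, as it was on F02, F03 and F04. With that value as a covariate, the Col5a3 difference over the 7 arrays was 2.95 ± 0.45 (SE), with an adjusted limma p of 0.172. Skeletal muscle markers averaged 8.71 to 11.5 on the 4 arrays with high Col5a3 and 4.55 to 11.5 on the other 5. Macrophage markers averaged 6.25 to 6.99 on those 4 and 7.57 to 8.44 on the other 5, so they split as Col5a3 did. Fibroblast markers averaged 7.81 to 9.40 and 9.42 to 10.1, also without overlap. The means of the other marker lists overlapped. Whether composition takes part in the Col5a3 difference was not tested.

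Limits of the Col5a3 result are the arrays and the probe set. Its adjusted p over the 7 arrays passed without F08 (0.013) and with array weights (0.021), where 15448 probe sets passed, and in no other setting. Without F08, F02 and F03 are the only BMAL-/- arrays, and both have a large Gapdh value. Label and RNA integrity cannot be told apart in that setting. With array weights over the 9 arrays the Col5a3 difference was −0.20. The other Col5a3 probe set stayed at the floor, between 2.36 and 2.44 on every array, and checks nothing.

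**Figure D2:**
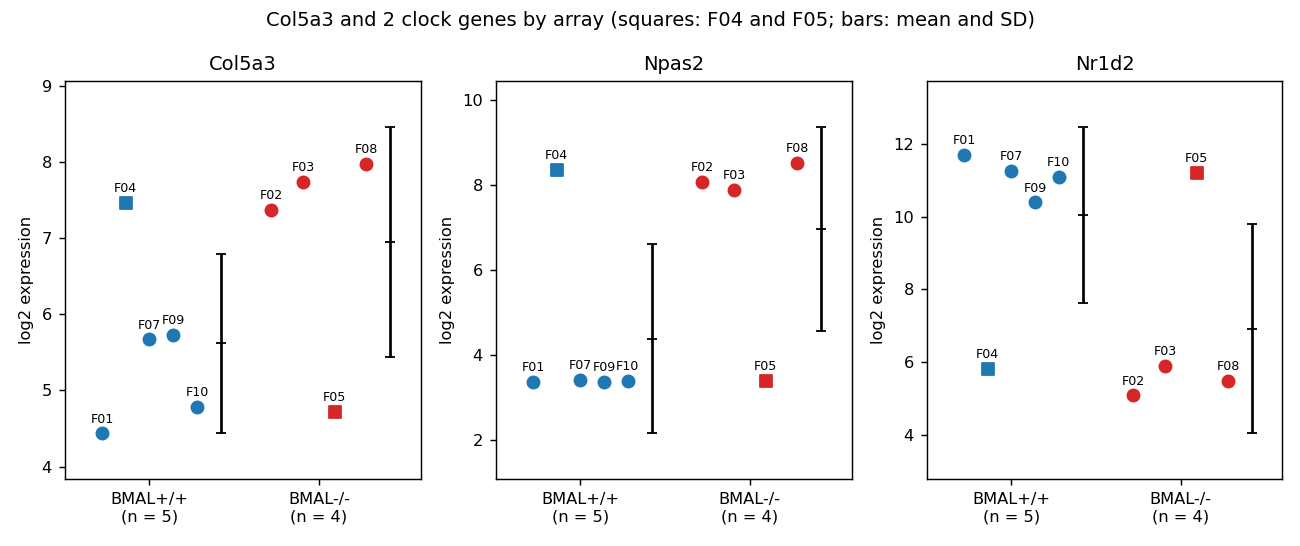
Log2 expression of Col5a3, Npas2 and Nr1d2 is plotted for each array by labelled genotype (BMAL+/+ n = 5, BMAL-/- n = 4), with F04 and F05 as squares and bars for the mean and SD. In each panel F04 sits among the BMAL-/- arrays and F05 among the BMAL+/+ arrays: Col5a3 read 7.45 on F04 and 4.71 on F05.

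For the chains of the main fibres, values on the 4 arrays with high Npas2 overlapped those on the other 5. Col1a1 and Col1a2 make type I collagen, the stiff fibre of the adventitia. Col1a1 read 9.77, 10.74, 9.65 and 9.06 on F01, F07, F09 and F10, and 10.87 on F04. It read 10.40, 10.21 and 10.72 on F02, F03 and F08, and 10.18 on F05. The highest array was F04 of BMAL+/+ and the lowest F10, so the groups overlapped. Its difference was 0.36 ± 0.37 (SE) over the 9 arrays and 0.64 ± 0.39 over the 7, with adjusted limma p of 0.58 and 0.288. Its dimmer probe set had the opposite sign, −0.71 and −0.85.

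Col1a2 read 12.03, 12.65, 11.48 and 11.58 on F01, F07, F09 and F10, 12.31 on F04, 11.53, 11.20 and 12.66 on F02, F03 and F08, and 12.34 on F05. The groups shared their range, with F03 lowest and F08 highest, both BMAL-/-. The difference was −0.08 ± 0.35 (SE) over the 9 arrays and −0.14 ± 0.43 over the 7. Col3a1, the chain of type III collagen that makes vessels extensible, read 13.04, 14.07, 13.48 and 13.16 on F01, F07, F09 and F10 and 13.73 on F04. It read 13.08, 12.71 and 14.25 on F02, F03 and F08 and 13.60 on F05. F03 and F08 of BMAL-/- were again the lowest and the highest, and the difference was −0.08 ± 0.33 (SE) and −0.09 ± 0.41. The dimmer Col3a1 probe set had the opposite sign, 0.17 and 0.43. On the brightest probe sets, with the Gapdh value as a covariate, the sign turned over the 7 arrays, to 0.40 ± 0.50 for Col1a2 and 0.64 ± 0.36 for Col3a1.

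Type V collagen with its α1 and α2 chains starts fibres and sets their width. Col5a1 read 10.26, 10.41, 9.20 and 9.54 on F01, F07, F09 and F10, 10.52 on F04, 9.99, 9.62 and 10.46 on F02, F03 and F08, and 10.35 on F05. Col5a2 read 10.85, 11.22, 10.08 and 10.19 on F01, F07, F09 and F10, 11.24 on F04, 10.30, 10.23 and 11.30 on F02, F03 and F08, and 11.15 on F05. F09 and F10 were low for both, and neither gene set F02, F03, F04 and F08 apart from the other arrays as Col5a3 did. The differences were 0.12 ± 0.32 (SE) and 0.17 ± 0.36 for Col5a1, and 0.03 ± 0.34 and 0.02 ± 0.39 for Col5a2. Of the dimmer Col5a1 probe sets, 1 gave 0.11 and 0.19, and the dimmest had the opposite sign, −0.58 and −0.92. Col27a1, a fibrillar collagen of developing cartilage, differed by −0.05 and −0.11.

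**Figure D3:**
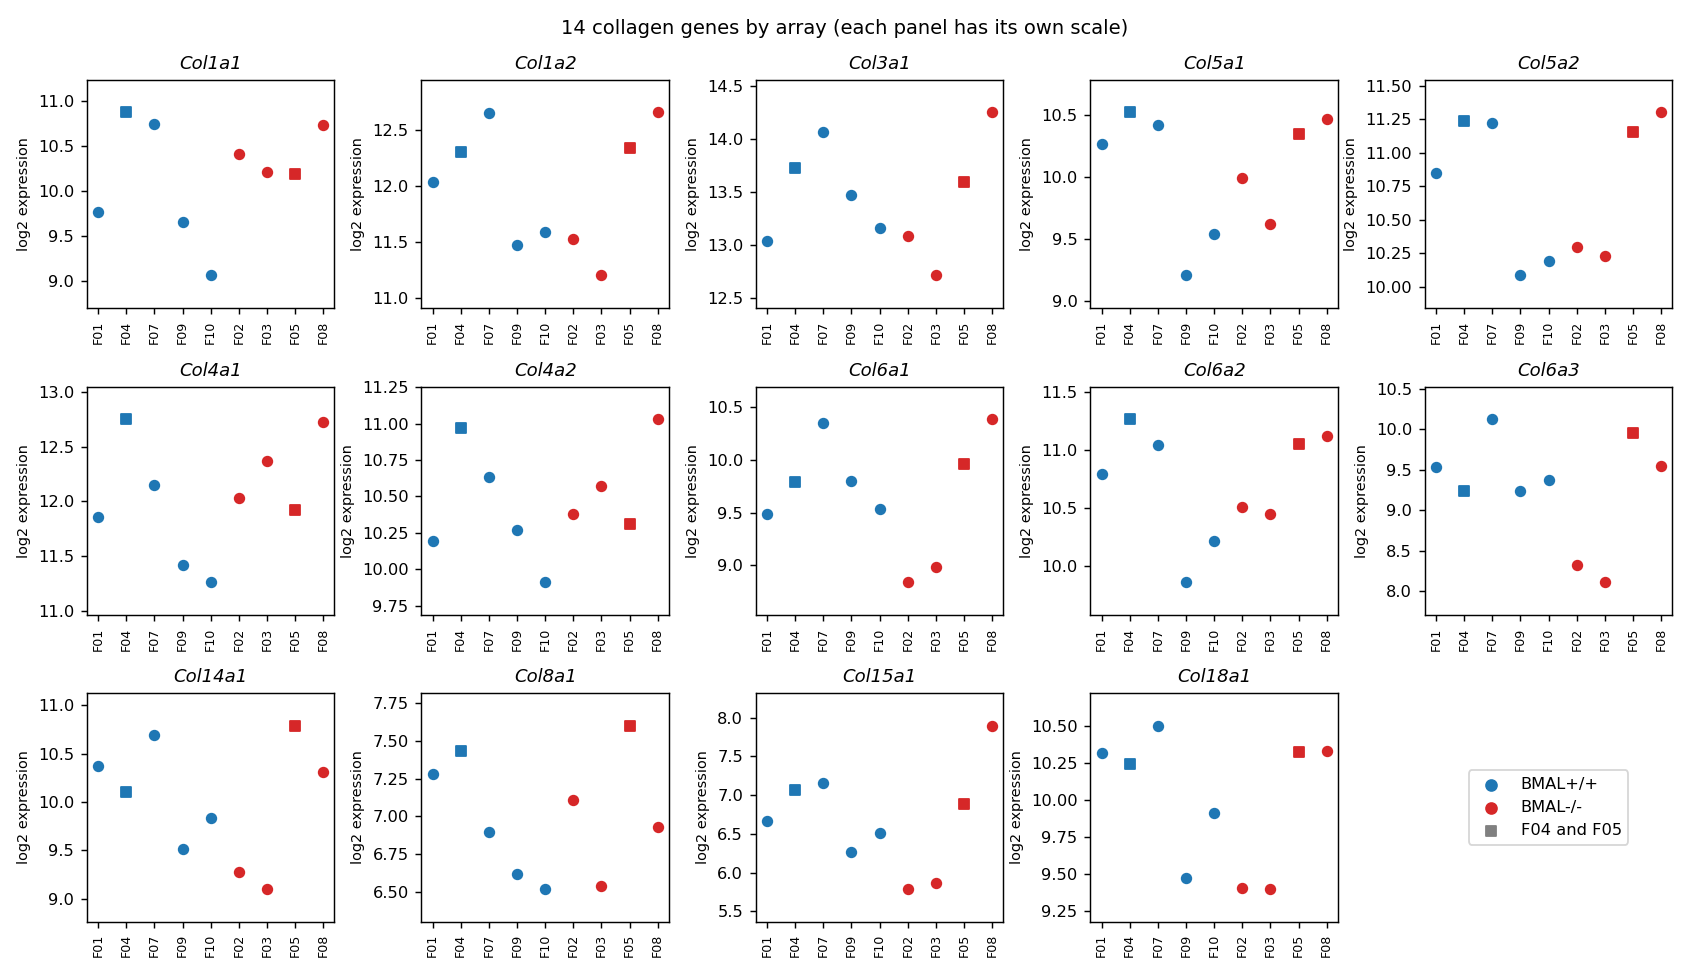
Log2 expression of the 14 collagen genes chosen for full values is plotted by array, each panel on its own scale, coloured by labelled genotype. Groups overlap in every panel: Col3a1, for instance, is lowest on F03 (12.71) and highest on F08 (14.25), both BMAL-/-.

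Of the basement membrane chains of type IV collagen, Col4a1 was higher and Col4a6 lower over the 7 arrays at an unadjusted p under 0.05, and neither passed adjustment. Col4a1 and Col4a2 form the common type IV molecule of vessels. Col4a1 read 11.86, 12.15, 11.42 and 11.26 on F01, F07, F09 and F10, 12.75 on F04, 12.03, 12.37 and 12.72 on F02, F03 and F08, and 11.92 on F05. F04 and F08 were highest and F10 lowest, and 1 BMAL+/+ array, F07, lay within the BMAL-/- range when F04 was left out. The difference was 0.37 ± 0.31 (SE) over the 9 arrays, with an adjusted limma p of 0.498, and 0.70 ± 0.26 over the 7, with an adjusted p of 0.208 and an exact permutation p of 0.0857.

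Col4a2 read 10.19, 10.63, 10.27 and 9.91 on F01, F07, F09 and F10, 10.97 on F04, 10.38, 10.57 and 11.03 on F02, F03 and F08, and 10.31 on F05. It followed the order of Col4a1 closely, with F08 and F04 highest and F10 lowest. Its difference was 0.18 ± 0.24 (SE) and 0.41 ± 0.23. With the Gapdh value as a covariate the 7-array differences were 0.89 ± 0.35 for Col4a1 and 0.68 ± 0.26 for Col4a2, with adjusted limma p of 0.895 for both. The dimmer Col4a1 probe set had the opposite sign, −0.25 over the 9 arrays and −0.21 over the 7.

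Col4a6, a chain of the basement membrane that surrounds smooth muscle, read 7.41, 7.57, 6.72 and 7.25 on F01, F07, F09 and F10 and 6.91 on F04. It read 5.18, 5.84 and 7.14 on F02, F03 and F08 and 7.51 on F05. It was low on F02 and F03 alone, and F08 lay among the BMAL+/+ arrays. Mean Col4a6 was 7.17 ± 0.35 for BMAL+/+ (SD, n = 5) and 6.42 ± 1.09 for BMAL-/- (SD, n = 4), and the difference was −0.76 ± 0.46 (SE), with an adjusted limma p of 0.388. Without F04 and F05 it was −1.19 ± 0.47, with an adjusted p of 0.208 and an exact permutation p of 0.0857. The dimmer probe set gave −0.80 and −1.27.

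F02 and F03 are arrays with a large Gapdh 3' minus 5' value, and with that value as a covariate the Col4a6 difference was −0.44 ± 0.45 (SE). In the comparison as labelled, removing F02, F03 and F04 changed it from −0.76 to 0.08 ± 0.28, with F05 and F08 as the only BMAL-/- arrays (n = 2), of which F05 has clock genes like BMAL+/+. The 8 smooth muscle markers averaged 9.77 to 11.2 on the BMAL-/- arrays and 10.4 to 11.5 on the BMAL+/+ arrays, and 8 of 8 had a negative difference, with a median of −0.59 over the 9 arrays and −0.995 over the 7. In bulk tissue, fewer cells of a type and less RNA per cell cannot be told apart.

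The chains Col4a3, Col4a4 and Col4a5 assemble with each other in specialised basement membranes, and Col4a5 also assembles with Col4a6. Col4a3 had groups that did not overlap over the 7 arrays, from 2.77 to 3.87 in BMAL+/+ and from 3.91 to 4.51 in BMAL-/-, with 4.83 on F04 and 3.91 on F05. The gap between the groups was narrow, and the difference was 0.53 ± 0.32 (SE), with an unadjusted limma p of 0.141. The second Col4a3 probe set had the opposite sign, −0.36 ± 0.33 over the 9 arrays and −0.23 ± 0.37 over the 7, and its groups overlapped. Col4a4 differed by 0.25 and 0.38, with 0.44 and 0.65 on its next brightest probe set. Col4a5 differed by 0.06 and −0.07, with −0.61 and −1.005 on its second. The median over the 6 type IV genes was 0.20 over the 9 arrays and 0.39 over the 7, against 0.01 and 0.03 over all brighter genes. It rests on 1 probe set per gene, and those of Col4a1, Col4a3 and Col4a5 have a second one with a negative difference in both comparisons. The other class medians were 0.03 and 0.02 for the 7 fibrillar genes, −0.25 and −0.39 for the 3 of type VI, 0.04 and 0.04 for the 7 fibril-associated genes, and −0.17 and −0.24 for the 2 multiplexins. These also rest on 1 probe set per gene, and a second one had the opposite sign in both comparisons for Col1a1, Col6a2 and Col18a1, among others.

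Type VI collagen links cells to fibres, and 2 of its 3 brighter chains had negative differences on their brightest probe set. Col6a1 read 9.49, 10.35, 9.80 and 9.53 on F01, F07, F09 and F10, 9.79 on F04, 8.84, 8.98 and 10.39 on F02, F03 and F08, and 9.96 on F05. Col6a2 read 10.79, 11.04, 9.86 and 10.21 on F01, F07, F09 and F10, 11.26 on F04, 10.50, 10.45 and 11.12 on F02, F03 and F08, and 11.05 on F05. Col6a1 was lowest on F02 and F03, where the brightest Col6a2 probe set was in the middle of its range. The dimmer Col6a2 probe set was lowest on F03 (8.06) and F02 (8.24), and differed by −0.30 over the 9 arrays and −0.31 over the 7.

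Col6a3, the long chain of the type VI molecule, read 9.53, 10.13, 9.24 and 9.38 on F01, F07, F09 and F10, 9.24 on F04, 8.33, 8.11 and 9.55 on F02, F03 and F08, and 9.96 on F05. F02 and F03 stood below every other array. The differences were −0.25 ± 0.34 (SE) and −0.39 ± 0.42 for Col6a1, 0.15 ± 0.31 and 0.21 ± 0.33 for Col6a2, and −0.52 ± 0.40 and −0.91 ± 0.39 for Col6a3. The limma p of Col6a3 over the 7 arrays was 0.0562 unadjusted and 0.208 adjusted, and the exact permutation p was 0.143. With the Gapdh covariate its difference was −0.29 ± 0.39 and that of Col6a1 0.39 ± 0.32. In the comparison as labelled, removing F02, F03 and F04 changed the Col6a3 difference from −0.52 to 0.18 ± 0.29, again with F05 and F08 alone as BMAL-/-.

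The fibroblast markers, like smooth muscle ones, had mostly negative differences: 8 of 9, with a median of −0.73 over the 9 arrays and −1.19 over the 7. Their mean was 8.50 to 10.1 on the BMAL+/+ arrays and 7.81 to 9.71 on the BMAL-/- arrays, lowest on F03, F02 and F04. Macrophage markers were lower in 8 of 8, with medians of −0.67 and −1.19, and endothelial markers in 6 of 8, with medians of −0.31 and −0.40. Cardiac muscle markers had medians of −0.94 and −1.92, with 4 and then 5 of 5 lower. Skeletal muscle markers went the other way, with medians of 0.75 and 1.34 and 1 of 7 lower in each comparison. Whether these shifts take part in the differences of Col4a6, Col6a1 and Col6a3 was not tested.

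Among the fibril-associated collagens, Col9a3, a chain of the type IX collagen of cartilage, was the one brighter member higher at an unadjusted p under 0.05 over the 9 arrays. It read 3.07, 3.12, 3.09 and 3.10 on F01, F07, F09 and F10 and 3.32 on F04. It read 3.61, 3.86 and 3.20 on F02, F03 and F08 and 3.30 on F05. All these values are close to the floor, and F02 and F03 were the highest. Mean Col9a3 was 3.14 ± 0.10 for BMAL+/+ (SD, n = 5) and 3.49 ± 0.30 for BMAL-/- (SD, n = 4), and the difference was 0.36 ± 0.13 (SE), with an adjusted limma p of 0.37 and an exact permutation p of 0.0317.

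The Col9a3 difference over the 7 arrays was 0.46 ± 0.14 (SE), with an adjusted limma p of 0.208 and an exact permutation p of 0.0286. With the Gapdh covariate it was 0.23 ± 0.13. Its other probe sets lay between 2.21 and 2.90. The mean of the cartilage markers was 3.26 to 3.37 on the BMAL+/+ arrays and 3.28 to 3.54 on the BMAL-/- arrays, highest on F03, as Col9a3 was. It was next on F05 (3.44) and F02 (3.40), where Col9a3 read 3.30 and 3.61. Of the markers, Ucma read 5.22 on F03 and 3.97 to 4.57 on the other arrays. Whether cartilage takes part in the Col9a3 difference was not tested.

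Col14a1, which binds the surface of type I fibres, read 10.37, 10.69, 9.52 and 9.83 on F01, F07, F09 and F10, 10.10 on F04, 9.28, 9.10 and 10.31 on F02, F03 and F08, and 10.78 on F05. It was lowest on F03 and F02 and highest on F05, all BMAL-/-. The difference was −0.23 ± 0.39 (SE) and −0.54 ± 0.40. Of the other members of the class, Col12a1 differed by 0.09 and 0.12, Col16a1 by 0.09 and −0.01, Col19a1 by −0.30 and −0.64, Col20a1 by 0.04 and 0.29, and Col22a1 by 0.03 and 0.04. The unadjusted limma p of these 5 genes was at least 0.161 in either comparison.

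The multiplexins Col15a1 and Col18a1 lie in basement membranes, and the end of the Col18a1 chain is released as endostatin, which restrains vessel growth. Col15a1 read 6.67, 7.16, 6.26 and 6.51 on F01, F07, F09 and F10, 7.06 on F04, 5.79, 5.86 and 7.89 on F02, F03 and F08, and 6.88 on F05. Col18a1 read 10.31, 10.50, 9.47 and 9.91 on F01, F07, F09 and F10, 10.24 on F04, 9.41, 9.40 and 10.33 on F02, F03 and F08, and 10.32 on F05. Both were lowest on F02 and F03 and overlapped between groups, for Col18a1 on its brightest probe set. The dimmer Col18a1 probe set was lowest on F09 (8.91), read 9.50 and 9.42 on F02 and F03, and differed by 0.007 over the 9 arrays and 0.018 over the 7. The differences were −0.13 ± 0.43 (SE) and −0.14 ± 0.54 for Col15a1, and −0.22 ± 0.29 and −0.34 ± 0.34 for Col18a1. With the Gapdh covariate the 7-array differences were 0.83 ± 0.45 for Col15a1 and 0.01 ± 0.42 for Col18a1.

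Col8a1, the short-chain collagen of the subendothelium that smooth muscle makes after injury, read 7.28, 6.89, 6.62 and 6.52 on F01, F07, F09 and F10, 7.43 on F04, 7.11, 6.54 and 6.93 on F02, F03 and F08, and 7.60 on F05. Its groups overlapped, with F05 highest and F10 lowest, and the difference was 0.10 ± 0.27 (SE) and 0.03 ± 0.24. Col23a1, a transmembrane collagen, differed by 0.02 and 0.07.

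The 15 dimmer members were Col2a1, Col6a4, Col6a5, Col7a1, Col8a2, Col9a1, Col9a2, Col10a1, Col11a1, Col11a2, Col13a1, Col17a1, Col24a1, Col25a1 and Col26a1. Their array values lay between 2.07 and 3.39, and no gene spanned more than 0.62 over the arrays. Col2a1, the fibre of cartilage, was among them, and so was Col10a1, the collagen of growth plate cartilage. Over the 7 arrays Col6a5, Col9a2, Col11a2, Col13a1, Col24a1 and Col25a1 were higher at an unadjusted limma p under 0.05, by between 0.02 and 0.20. In that comparison 18.2% of all genes (3309 of 18193) and 8.06% of the brighter ones (901 of 11181) were higher. Most of the genes called higher were thus dimmer ones, although dimmer genes are the smaller part of all genes. The share among dimmer genes, the one to set beside these members, therefore lay far above 18.2%, and no excess of collagens is read from this count.

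The probe sets of 1 gene did not always give 1 direction. There were 14 pairs of probe sets, in 13 genes, where both averaged at least 5, and the signs were opposite in 7 pairs over the 9 arrays and in 6 over the 7 arrays. The gap between the brighter and the dimmer probe set was larger on F02, F03 and F04 than on every other array in 4 pairs (Col1a2, Col4a1, Col4a5 and 1 of Col5a1), smaller in 1 (Col18a1), and overlapped in 9. For Col4a1 the gap was 2.81 to 3.05 on those 3 arrays and 1.42 to 2.37 on the other 6. For Col4a5 it was 3.48 to 4.63 against 2.20 to 3.23, for Col5a1 5.74 to 6.11 against 3.44 to 5.39, and for Col1a2 1.58 to 2.00 against 0.43 to 1.55. No source used here gives the place of these probe sets on their transcripts.

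**Figure D4:**
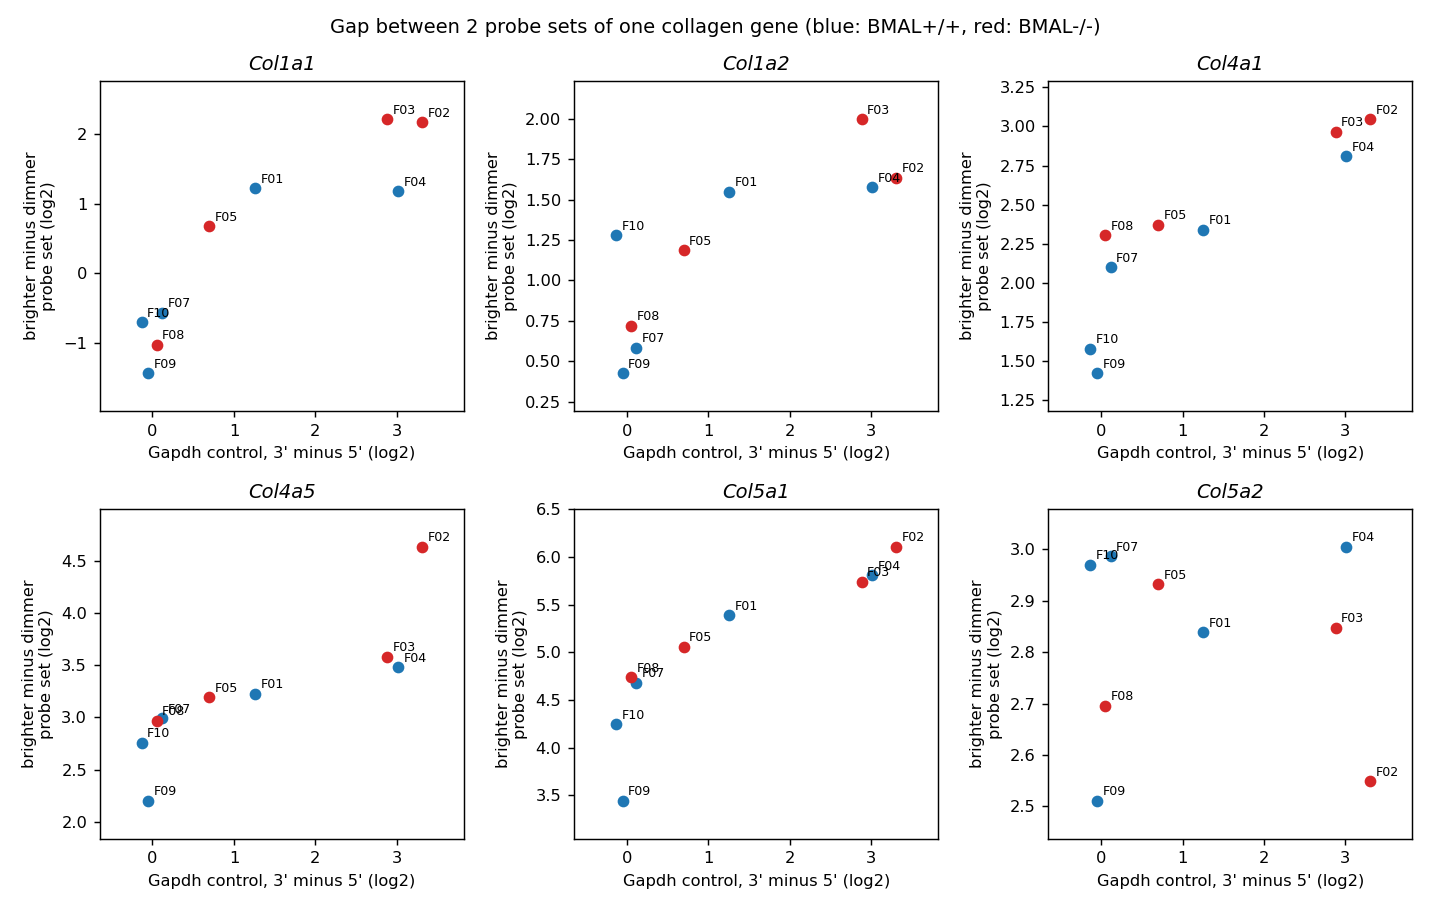
The gap between 2 probe sets of the same gene (log2) is plotted for 6 collagen genes against the Gapdh 3' minus 5' value of each array, coloured by labelled genotype. F02, F03 and F04 form a cluster at the right (2.88 to 3.31), where the Col4a1 gap is 2.81 to 3.05 against 1.42 to 2.37 on the other 6 arrays.

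Chains that assemble into 1 molecule or, for Col1a1 with Col3a1, into 1 fibril were compared across the 9 arrays, which share a platform. The means of the marker lists varied over these arrays, that of skeletal muscle from 4.55 on F01 to 11.5 on F08. The part of composition in the correlations was not tested. Over 7 pairs, with exact permutation p adjusted over the pairs, Col4a1 and Col4a2 had a Pearson r of 0.943 (adjusted p = 0.00093) and a Spearman rho of 0.95 (adjusted p = 0.0012). Col5a1 and Col5a2 had an r of 0.941 (adjusted exact p = 7.7e-05) and a rho of 0.983 (adjusted p = 0.00035). Without the 2 arrays farthest from the median of the first gene, r was 0.879 and 0.947. No pair of collagens that do not assemble together was tested, so these values do not tell partners from other collagens. Col5a1 and Col6a2, which are not partners, were also both lowest on F09 and F10 and highest on F04.

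Col6a1 and Col6a3 had an r of 0.865 (adjusted exact p = 0.0097) and a rho of 0.783 (adjusted p = 0.040), but r was 0.564 without F02 and F03, so the relation rests on those arrays. Col1a1 with Col1a2 had an r of 0.591 (adjusted exact p = 0.163) and Col1a1 with Col3a1 0.562 (0.163). Col6a1 with Col6a2 had 0.484 (0.218) and Col8a1 with Col8a2 0.302 (0.416), Col8a2 being near the floor. These 4 did not pass.

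Of 45 genes that modify, export, trim, crosslink or bind collagens, 41 were measured and none passed an adjusted p of 0.05 in limma in either comparison. At an unadjusted p under 0.05, 3 were higher and 0 lower over the 9 arrays, and 5 were higher and 6 lower over the 7. Over all genes these shares were 6.52% higher and 0.731% lower for the 9 arrays, and 18.2% and 4.13% for the 7. Of the 41 genes, 32 were brighter, and over brighter genes the shares were 1.17% and 1.16% for the 9 arrays and 8.06% and 6.65% for the 7. The products of 15 genes of prolyl and lysyl hydroxylation make the helix stable and prepare crosslinks. Of these, 1 was higher and 5 lower over the 7 arrays. Their median was −0.13 over the 9 and −0.43 over the 7, against 0.03 and 0.04 over all genes, of which 18.2% were higher and 4.13% lower over the 7. Since 14 of the 15 were brighter, the closer background is that of brighter genes, with medians of 0.01 and 0.03. Of those, 8.06% were higher and 6.65% lower over the 7 arrays. Over the same arrays the medians of smooth muscle, fibroblast and macrophage markers were −0.995, −1.19 and −1.19, and F02 and F03 had the large Gapdh 3' minus 5' values of 3.31 and 2.88. Their part in the differences of these enzymes was not tested.

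Colgalt1, which adds galactose to hydroxylysine, read 8.04 to 8.15 on F01, F07, F09 and F10, 7.62 on F04, 7.38, 7.17 and 7.75 on F02, F03 and F08, and 8.06 on F05. It was low on the 4 arrays where Npas2 was high, and its 7-array difference was −0.68 ± 0.17 (SE), with an adjusted limma p of 0.208. Plod1, a lysyl hydroxylase, read 6.12 to 7.68 on those BMAL+/+ arrays, 4.80 on F04, 4.29, 4.74 and 5.90 on F02, F03 and F08, and 5.88 on F05, with a difference of −1.78 ± 0.49. Plod2, the lysyl hydroxylase of the chain ends, differed by −1.28 ± 0.44, and was lowest on F02, F03 and F04. P4ha3, a prolyl hydroxylase subunit, differed by 0.30 ± 0.11 at 3.12 to 3.72, near the floor.

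Of 7 genes of folding and export, 2 were higher over the 7 arrays: Klhl12, an adaptor of the ubiquitin ligase that enlarges secretory vesicles for collagen, by 0.61 ± 0.20 (SE), and Mia2, an export receptor, by 0.05 ± 0.02 at the floor. Of all genes, 18.2% were higher there, and of brighter genes 8.06%. Of 6 measured genes of propeptide cleavage, Pcolce2, an enhancer of that cleavage, read 8.63 to 9.50 on F01, F07, F09 and F10, 7.21 on F04, 6.81, 5.75 and 8.57 on F02, F03 and F08, and 9.35 on F05. It was lowest on F03, F02 and F04, the arrays with a large Gapdh value, and its difference was −2.10 ± 0.63. Tll2, a protease of the same step, differed by 0.05 ± 0.02 at the floor.

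None of 4 measured crosslinking enzymes had an unadjusted limma p under 0.05 in either comparison. Of 9 measured receptors, Itga10, a collagen-binding integrin of cartilage, differed by 0.86 ± 0.29 (SE) over the 7 arrays, and read 6.50 on F04, above every other array (2.99 to 4.45). Over the 9 arrays its difference was 0.15 ± 0.66. Adamts2, Adamts14, Loxl2 and Itga11 are not analysed here.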

How the data were processed

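The authors deposited log2 expression values of 45101 probe sets on 9 arrays. Per the submitters' processing notes, GCRMA and MAS5 were used, with no role or version. The dense floor narrows the spread of dim transcripts, where a small shift can have a small error. No further normalization was applied, and 64 control probe sets were left out.

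For 45037 probe sets, BMAL-/- was compared with BMAL+/+ in limma 3.58.1 in R 4.3.3 (eBayes with a trend) and adjusted by Benjamini-Hochberg, two-sided. Exact permutation tests ran over all 126 splits of 9 arrays (smallest p 0.00794) and 35 of 7. Symbols were matched by gene identifier to RefSeq (GRCm38.p6) for 34741 of 34945 single-gene probe sets. Array number limits precision. The labels speak of biological replicates but name no animals.

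The members, the 7-array comparison and the lists were chosen with earlier results of these data known. Full values are given for 14 preset genes and for brighter members with an unadjusted p under 0.05 in either comparison, and up to 4 genes of a pathway list with the smallest such p. Col4a3 was added after its values were seen. The alternatives were quantile normalization, centring, no trend, a robust trend, array weights, the one-way ANOVA of the design text, a floor at the 20th percentile, a brightness filter, averaging of a gene's probe sets, F01 in BMAL-/- and each array left out. The Gapdh covariate and the removal of F02, F03 and F04 were added after seeing the data. The scripts were tested on simulated data.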

Additional observations from a re-analysis of the deposited data

Results flagged for a closer look

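Of 34 groups of 4 or 5 arrays examined for 1 distant array, 1 was found, where chance gives about 1 in 20. Col9a3 on F04, labelled BMAL+/+, read 3.32, and the other 4 BMAL+/+ arrays read 3.07 to 3.12. The gap was 0.817 of the group's range. F04 is the array whose clock genes read like BMAL-/- and whose Gapdh 3' minus 5' value was 3.01. The value lies near the floor.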

How the results depend on the processing

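Over the 9 arrays the count of 3 collagen genes at an unadjusted p under 0.05 became 0 with F01 in BMAL-/-, 6 with array weights and 1 above the median brightness, and 0 to 6 when 1 array was left out. Over the 7 arrays the count of 10 became 6 with the Gapdh covariate, 4 with centring, 6 without a trend, 5 with the one-way ANOVA, 4 above the median brightness, 4 with quantile normalization, and 3 to 14 when 1 array was left out. The brightness filter tests fewer genes, and the cause of the other changes was not tested. The family's median difference of 0.04 over the 9 arrays ranged from 0.01 with centring to 0.17 without F02, F03 and F04, where the median over all probe sets was 0.01. Over the 7 arrays it was 0.05 and ranged from −0.003 with centring to 0.09 without F07. Of 646 combinations of 17 named genes and a setting, 74 changed sign with a difference within 1 SE in at least 1 of the fits, and none reversed beyond it. Col4a1 and Col9a3 kept their sign in all settings of both comparisons, and Col4a2, Col4a6, Col5a3, Col6a3 and Col14a1 in all of the 7-array ones. Over the 7 arrays Col4a6, Col5a3, Col6a3 and Col9a3 passed an adjusted p of 0.05 without F08 and with array weights, and in no other setting. Without F08 the only BMAL-/- arrays are F02 and F03, both with a large Gapdh value, so label and RNA integrity cannot be told apart. Most brighter collagens are well above the floor, but 15 members are below the median brightness, and differences there are bounded by it. No paired analysis was possible because the groups share no replicate numbers.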
